A study of Mus musculus with 12 samples.

Results

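Cells make cholesterol from acetyl-CoA through mevalonate, isoprenoids and squalene. The supply is set by SREBP2, a transcription factor held in the endoplasmic reticulum by SCAP and the INSIG proteins while sterols are plentiful. When sterols run low it is carried to the Golgi, cut free and sent to the nucleus, where it turns on genes of sterol synthesis and uptake. The brain makes its own cholesterol, because the endothelium of its vessels keeps plasma lipoproteins out.

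The 7 genes described here are Srebf2, which encodes SREBP2, Insig1, which encodes the retention protein, and the 5 synthesis enzyme genes Hmgcs1, Idi1, Fdft1, Sqle and Lss. They were taken by name from a table of 21638 genes, and none of the 7 encodes an uptake receptor. All 7 passed the filter on low values, as did 12577 genes in all. RNA came from cortical endothelial cells of adult mouse brains, sorted as CD31 positive and CD41 and CD45 negative. The 12 libraries formed 4 groups of 3. Wild-type (WT) mice were the controls. Hdac2 ECKO, an endothelial knockout of a histone deacetylase gene, came from Hdac2lox/lox:Cdh5CreERT2 mice. Ezh2 ECKO, the same for a Polycomb methyltransferase gene, was built on Ezh2lox/lox:Cdh5CreERT2. Beta-catenin GOF, in which beta-catenin is constitutively active, carried Ctnnb1lox/lox:Cdh5CreERT2. Cre in these mice is driven from Cdh5, an endothelial gene, and needs tamoxifen, of which the mutants had 5 doses of 75 mg per kg with the brains taken 2 months later. The labels do not state whether WT mice carried Cre or had tamoxifen, nor whether each library was a separate animal, so p-values measure the spread between libraries, which may be technical.

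Levels are CPM, counts scaled to the size of each library, and 3 counts, the limit taken for detection, stood for 0.0792 to 0.118 CPM. Tests are edgeR quasi-likelihood tests with Benjamini-Hochberg adjustment over all 12577 genes, and a gene is said to change where the adjusted p was under 0.05. Library totals ran from 24781070 to 36109975 counts. The targeted genes did not separate the groups: Hdac2 stood at 82.2, 95 and 112 CPM in Hdac2 ECKO against 163, 122 and 104 CPM in WT (log2 fold change −0.42, edgeR adjusted p 0.22). Ezh2 stood at 9.85, 5.19 and 11.7 CPM in the Ezh2 ECKO-labelled libraries against 8.88, 2.69 and 8.69 CPM in WT. These groups overlapped and Ezh2 did not fall, and the group is called the Ezh2 ECKO-labelled libraries throughout. Ctnnb1 in beta-catenin GOF was at a log2 fold change of −0.17 (edgeR adjusted p 0.96). Gene counts do not resolve the recombined exons, so the levels of these genes do not show whether recombination took place. All 14 endothelial markers were detected in every library, with sums of 18331 to 26370 CPM. Of 12 pericyte and smooth muscle markers, 11 were tested and 5 (Pdgfrb, Rgs5, Cspg4, Myh11 and Higd1b) rose in Hdac2 ECKO, where 3.82% of all genes rose. The sums of the 12 were 70.8 to 132 CPM in WT, 146 to 358 in Hdac2 ECKO, 64.3 to 86.2 in the Ezh2 ECKO-labelled libraries and 130 to 437 in beta-catenin GOF. Cnn1 was at 0 in every WT library. Platelet and red cell markers, nearly all haemoglobin, summed to 19632 to 33759 CPM in WT, 218 to 11770 in Hdac2 ECKO, 1468 to 3650 in the Ezh2 ECKO-labelled libraries and 290 to 20878 in beta-catenin GOF. Astrocyte markers summed to 24.3 to 36.2 CPM in WT, 50.8 to 76.4 in Hdac2 ECKO, 44.2 to 79.8 in the Ezh2 ECKO-labelled libraries and 37.9 to 54.1 in beta-catenin GOF. Of 8 neuron markers only 2 passed the filter on low values, so their sums rest on few genes. In replicate 2 of the Ezh2 ECKO-labelled libraries, which had the highest sum, 5 of the 8 were at 0. Neuron markers summed to 160 to 301 CPM in WT, 63.4 to 112 in Hdac2 ECKO, 178 to 422 in the Ezh2 ECKO-labelled libraries and 118 to 248 in beta-catenin GOF. Microglia and leukocyte markers summed to 7.83 to 11.9, 3.95 to 7.15, 4.28 to 11.9 and 3.62 to 5.46 CPM in the same order, and oligodendrocyte markers to between 14.7 and 86.7 CPM with overlap of all groups. The part of these cells in the results on the sterol genes was not tested.

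Fdft1, the squalene synthase that commits farnesyl units to sterols, was the only 1 of the 7 genes that changed, in a comparison where 9.2% of all genes did. It fell in Hdac2 ECKO, where WT stood 3.01-fold higher in the fit. Its 3' end overlaps the gene Ctsb on the opposite strand, which also fell there. The part of Ctsb reads in the Fdft1 counts was not tested. In the Ezh2 ECKO-labelled libraries Fdft1 stood as low but did not pass the threshold. Insig1 stood highest in those libraries and Hmgcs1 highest in Hdac2 ECKO, neither past the threshold, and Srebf2 stood at nearly the same mean level in all 4 groups.

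**Figure D1:**
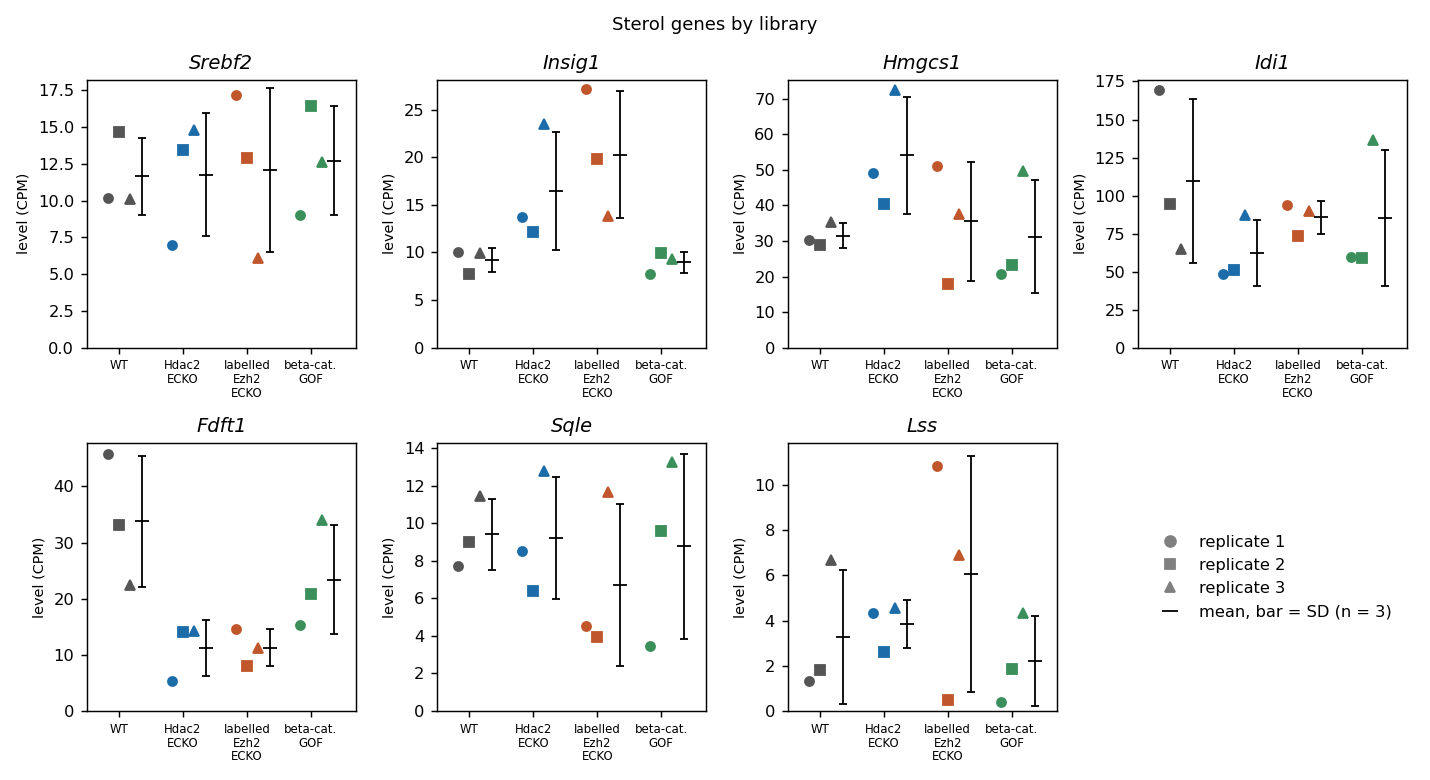
Level of each of the 7 sterol genes in CPM (vertical axes, from 0) in every library, by group, with the marker shape giving the replicate number and the bar the mean and SD of 3 libraries. Fdft1 lies below all WT libraries in Hdac2 ECKO and in the Ezh2 ECKO-labelled libraries, Insig1 lies above them in both, and the 4 groups overlap for Srebf2, Sqle and Lss.

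Over the 7 genes, 1 changed in Hdac2 ECKO, and it fell, where 9.2% of all genes tested changed and 5.38% fell. For 3 of the 7 the libraries did not overlap those of WT, against 37.8% of all genes: Insig1 and Hmgcs1 stood higher (19.5% of all genes did) and Fdft1 lower (18.2%). An unadjusted p under 0.05 was reached by 2 of the 7 (Insig1 and Fdft1) and by 33.1% of all genes. The 7 log2 fold changes had a median of 0.01, against 0.10 over all genes. With a trend on gene length removed, described below, the median of the 7 was −0.39, against −0.03 over all genes. For the Ezh2 ECKO-labelled libraries edgeR called 0 of the 7 (1.03% of all genes), while DESeq2 called 2. Insig1 stood higher without overlap (11.1% of all genes did) and Fdft1 lower (10.9%), so that 2 of the 7 did not overlap against 22% of all genes, and the same 2 had an unadjusted p under 0.05, as did 24.7% of all genes. The median was 0.05 for the 7 and 0.05 for all genes, and with the length trend removed −0.07 and 0.06. In beta-catenin GOF 0 of the 7 changed by edgeR, as did 0% of all genes, and DESeq2 also called 0 of the 7. An unadjusted p under 0.05 was reached by 0 of the 7 and by 6.07% of all genes. All 7 overlapped WT there, where 12.7% of all genes did not.

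Between the mutants, edgeR called 0 of the 7 in beta-catenin GOF against Hdac2 ECKO (0.0716% of all genes), 0 in beta-catenin GOF against the Ezh2 ECKO-labelled libraries (0.0636%) and 0 in Hdac2 ECKO against those libraries (0.0239%). DESeq2 and limma-trend also called 0 in all 3 comparisons. Fdft1 and Insig1 did not overlap in the first of these, as was so for 32% of all genes, and had an unadjusted p under 0.05, as did 21.1%. The same 2 genes did so in the second, where 16.6% of all genes did not overlap and 13.2% had such a p. In the last, 0 of the 7 had an unadjusted p under 0.05 (8.19% of all genes) and all 7 overlapped, where 13.2% of all genes did not. The scaling set the balance of directions in Hdac2 ECKO: with library size alone the median of all genes moved from 0.10 to 0.34, 1469 of 1826 calls were higher in place of 480 of 1157, and the median of the 7 was 0.27.

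The genes differed widely in level. Per kilobase of merged exons, a length that counts the exons of all annotated isoforms of a gene, Idi1, which encodes the isomerase of the 5-carbon isoprenoid unit, was highest in WT at 31.3 ± 15.5 CPM per kb (SD, n = 3). Fdft1 followed at 8.21 ± 2.82 CPM per kb and Hmgcs1 at 6.86 ± 0.764 CPM per kb, and this pair did not differ beyond its spread. Insig1 stood at 2.99 ± 0.410 CPM per kb. Sqle at 1.69 ± 0.342 CPM per kb and Srebf2 at 1.62 ± 0.362 CPM per kb were again within their spread. Lss, the lanosterol synthase gene, was lowest at 0.304 ± 0.275 CPM per kb.

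Srebf2 (ENSMUSG00000022463.8, chromosome 15, 82147181 to 82205379, plus strand, GRCm38) carries the microRNA gene Mir33 inside it. Its WT libraries held 10.2, 14.7 and 10.1 CPM. The Hdac2 ECKO libraries held 7.01, 13.4 and 14.8 CPM, the Ezh2 ECKO-labelled libraries 17.2, 12.9 and 6.11 CPM, and the beta-catenin GOF libraries 9.04, 16.5 and 12.6 CPM. The groups overlapped throughout, and their means ran only from 11.7 CPM in WT to 12.7 CPM in beta-catenin GOF. The log2 fold change against WT was 0.01 in Hdac2 ECKO, 0.05 in the Ezh2 ECKO-labelled libraries and 0.13 in beta-catenin GOF, each with an SE of 0.40 (edgeR adjusted p 0.99, 0.95 and 0.98). The 95% interval in Hdac2 ECKO ran from −0.83 to 0.86, so the fit does not exclude a change within that range. This is the transcript of the regulator and not its cleaved, active form, which was not measured.

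Insig1 (ENSMUSG00000045294.11, chromosome 5, 28071363 to 28078662, plus strand) is itself a target of SREBP and overlaps no other annotated gene. WT libraries held 10.1, 7.79 and 9.90 CPM. Hdac2 ECKO libraries held 13.7, 12.1 and 23.5 CPM, and the Ezh2 ECKO-labelled libraries held 27.2, 19.8 and 13.8 CPM. Every library of both groups lay above every WT library. The beta-catenin GOF libraries, at 7.78, 9.92 and 9.29 CPM, lay within the WT range or just below it, and below every library of both other mutants. Against WT the log2 fold change was 0.83 in Hdac2 ECKO (SE 0.33, 95% interval 0.13 to 1.53, edgeR adjusted p 0.099), short of the threshold. For the Ezh2 ECKO-labelled libraries it was 1.13 (SE 0.33, 95% interval 0.43 to 1.84, edgeR adjusted p 0.077), a fitted 2.19-fold difference that also fell short. In beta-catenin GOF it was −0.04 (SE 0.33, edgeR adjusted p 0.997). The mutants compared directly gave −0.87 for beta-catenin GOF against Hdac2 ECKO (edgeR adjusted p 0.18) and −1.17 for beta-catenin GOF against the Ezh2 ECKO-labelled libraries (edgeR adjusted p 0.25). The Insig1 difference in the Ezh2 ECKO-labelled libraries passed in some other fits, with an adjusted p of 0.0256 in DESeq2, 0.0454 in edgeR without the filter on low counts and 0.0141 with sample quality weights. Leaving out replicate 2 of these libraries also brought it past the threshold, at 0.0395. In Hdac2 ECKO it passed with scaling by library size alone (edgeR adjusted p 0.0496) and with sample quality weights (0.00545).

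Hmgcs1 (ENSMUSG00000093930.2, chromosome 13, 119690379 to 119708260, plus strand) encodes the synthase that joins acetyl units into HMG-CoA early in the pathway. WT libraries held 30.3, 28.7 and 35.5 CPM, the narrowest spread of the 7 genes relative to the mean (coefficient of variation 11.1%). Hdac2 ECKO libraries held 49.1, 40.5 and 72.5 CPM, all above WT. The Ezh2 ECKO-labelled libraries held 51.1, 17.9 and 37.5 CPM and the beta-catenin GOF libraries 20.8, 23.3 and 49.6 CPM, so that both groups straddled WT. The log2 fold change in Hdac2 ECKO was 0.78 (SE 0.39, 95% interval −0.06 to 1.61, edgeR adjusted p 0.18). It was 0.17 in the Ezh2 ECKO-labelled libraries (edgeR adjusted p 0.82) and −0.01 in beta-catenin GOF (edgeR adjusted p 0.9995). Hmgcs1 in Hdac2 ECKO passed only with sample quality weights (adjusted p 0.00621) among the alternatives run.

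Promoter sequence from RefSeq (GRCm38.p6) was at hand for 5 of the 7 genes, in windows of 300 bases around the start, and 3 are shown for the genes of the sterol loop just described. Each is cut off before the annotated gene start. Capitals mark the sterol response element letters TCACNCCAC, which SREBP binds in textbook targets, and the CCAAT box of its partner NF-Y, which reads ATTGG on the other strand. Srebf2 is from chr15:82147019-82147180, Insig1 from chr5:28071162-28071362 and Hmgcs1 from chr13:119690101-119690350, all on the plus strand.
Srebf2: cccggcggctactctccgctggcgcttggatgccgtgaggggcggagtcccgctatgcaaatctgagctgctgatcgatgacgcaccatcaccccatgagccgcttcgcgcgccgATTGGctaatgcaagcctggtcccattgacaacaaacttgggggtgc
Insig1: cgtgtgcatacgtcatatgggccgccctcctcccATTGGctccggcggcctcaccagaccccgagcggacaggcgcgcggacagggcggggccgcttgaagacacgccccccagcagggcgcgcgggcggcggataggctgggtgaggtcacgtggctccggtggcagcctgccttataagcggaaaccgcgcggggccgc
Hmgcs1: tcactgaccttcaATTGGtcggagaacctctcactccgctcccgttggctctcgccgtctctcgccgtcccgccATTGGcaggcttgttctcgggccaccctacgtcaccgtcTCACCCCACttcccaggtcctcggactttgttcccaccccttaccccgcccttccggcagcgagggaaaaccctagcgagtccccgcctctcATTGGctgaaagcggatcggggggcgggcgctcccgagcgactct

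Among the 5 windows, TCACNCCAC on either strand was found in Hmgcs1 alone, 137 bases before the start, while 1.24% of all 32851 promoter windows held it. CCAAT on either strand was found in all 5 (Srebf2, Hmgcs1, Insig1, Lss and Idi1), against 37.4% of all windows, and 4 times in the full window of Hmgcs1. The GC box GGGCGG, not capitalised above, was also in all 5, against 35.7% of all windows. Of the other 17 synthesis enzyme genes, 14 had a window, of which 0 held TCACNCCAC and 13 held CCAAT. A match describes the letters only and is not a measured binding site.

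Idi1 (ENSMUSG00000058258.14, chromosome 13, 8885501 to 8892451, plus strand) varied most among WT libraries in absolute level, at 170, 94.3 and 64.6 CPM. Hdac2 ECKO libraries held 48.6, 50.8 and 87.3 CPM, the Ezh2 ECKO-labelled libraries 93.9, 73.5 and 90.0 CPM, and beta-catenin GOF 59.9, 58.9 and 137 CPM. WT replicate 1 was the highest of all 12, and all 3 mutant groups overlapped WT. The log2 fold changes of −0.82, −0.35 and −0.36, each with an SE of 0.39, did not pass (edgeR adjusted p 0.15, 0.60 and 0.94). Without WT replicate 1 the Hdac2 ECKO value was −0.35.

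Fdft1 (ENSMUSG00000021273.10, chromosome 14, 63145150 to 63179578, minus strand) stood at 45.7, 33.1 and 22.5 CPM in WT, a mean of 33.8 ± 11.6 CPM (SD, n = 3). Hdac2 ECKO libraries held 5.42, 14.0 and 14.3 CPM, a mean of 11.2 ± 5.04 CPM, and the Ezh2 ECKO-labelled libraries held 14.6, 7.95 and 11.3 CPM, a mean of 11.3 ± 3.34 CPM. All 6 of these libraries lay below all 3 WT libraries. Beta-catenin GOF libraries, at 15.4, 20.8 and 34.1 CPM, lay above all 6 and overlapped WT. In Hdac2 ECKO Fdft1 fell by 1.59 on the log2 scale against WT (SE 0.42, 95% interval −2.47 to −0.70, edgeR adjusted p 0.039). In the Ezh2 ECKO-labelled libraries the log2 fold change of −1.58 was of the same size (SE 0.42, 95% interval −2.47 to −0.70) and missed the threshold (edgeR adjusted p 0.066). The direct difference between these groups was −0.01 with a 95% interval from −0.88 to 0.86. In beta-catenin GOF it was −0.53 (SE 0.41, edgeR adjusted p 0.91). Against Hdac2 ECKO, beta-catenin GOF stood 1.06 higher on the log2 scale (95% interval 0.18 to 1.93, edgeR adjusted p 0.18), and against the Ezh2 ECKO-labelled libraries 1.05 higher (edgeR adjusted p 0.33), neither past the threshold. The Fdft1 call in Hdac2 ECKO was lost with scaling by library size alone (log2 fold change −1.34, edgeR adjusted p 0.058). It was also lost without WT replicate 1 (−1.31, adjusted p 0.147), WT replicate 2 (−1.60, 0.104), Hdac2 ECKO replicate 1 (−1.28, 0.166) or Hdac2 ECKO replicate 3 (−1.80, 0.139), fits that left 0, 0, 3 and 0 calls among all genes. Its value in the Ezh2 ECKO-labelled libraries passed in DESeq2 (adjusted p 0.00753) and without WT replicate 3 (edgeR adjusted p 0.0258) or their own replicate 2 (0.0485).

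The 3' end of Fdft1 overlaps that of Ctsb, the gene of the lysosomal protease cathepsin B, which lies on the opposite strand. They share 774 exon bases, which is 18.3% of the annotated exons of Fdft1 and 12.8% of those of Ctsb. Of 20 genes whose exons are wholly covered by a gene on the same strand 19 had counts, as had 18 of 19 covered on the opposite strand. Whether the counting used strand is not given in the sources used here. Ctsb stood at 242, 152 and 114 CPM in WT. In Hdac2 ECKO its level was 60.4, 86.4 and 61.2 CPM. It fell by 1.29 on the log2 scale in Hdac2 ECKO (SE 0.30, edgeR adjusted p 0.034), and its log2 fold change was −1.21 in the Ezh2 ECKO-labelled libraries (edgeR adjusted p 0.056) and −0.39 in beta-catenin GOF (edgeR adjusted p 0.91). Over the 12 libraries Pearson's r of log2 CPM between the 2 genes was 0.87. Fdft1 held between 8.97% and 23.3% as many counts as Ctsb in each library. This share was 8.97% in Hdac2 ECKO replicate 1 and 9.23% in replicate 2 of the Ezh2 ECKO-labelled libraries. Both lay below the 12.8% of Ctsb exon bases that are shared, which is a share of length and not of reads. If strand was not used, reads of the 2 genes in the shared stretch cannot be told apart.

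**Figure D2:**
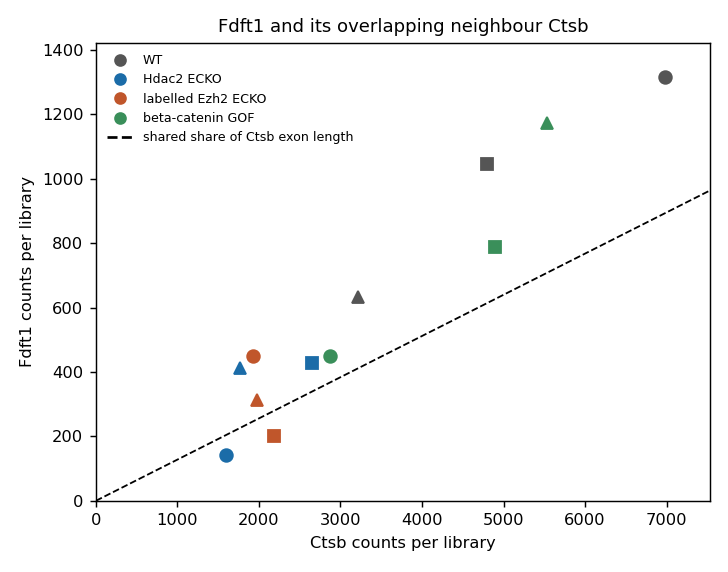
Counts of Fdft1 (vertical axis) against counts of its overlapping neighbour Ctsb (horizontal axis) in the 12 libraries, coloured by group, with the marker shape giving the replicate number (circle 1, square 2, triangle 3). The dashed line is where Fdft1 would hold 12.8% as many counts as Ctsb, the share of Ctsb exon length that the genes have in common, and the libraries run from 8.97% to 23.3%.

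Sqle (ENSMUSG00000022351.14, chromosome 15, 59315077 to 59331192, plus strand) encodes squalene epoxidase, the oxygen-dependent step after squalene synthase. WT libraries held 7.74, 8.99 and 11.5 CPM, and Hdac2 ECKO libraries 8.52, 6.40 and 12.8 CPM. The Ezh2 ECKO-labelled libraries held 4.51, 3.94 and 11.7 CPM, and the beta-catenin GOF libraries 3.48, 9.58 and 13.2 CPM. The groups overlapped in each comparison, with log2 fold changes of −0.03, −0.49 and −0.10 against WT (SE 0.49, 0.50 and 0.49, edgeR adjusted p 0.98, 0.57 and 0.99).

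Lss (ENSMUSG00000033105.12, chromosome 10, 76531588 to 76557138, plus strand) closes squalene epoxide to lanosterol and was the least precisely measured of the 7. WT libraries held 1.32, 1.84 and 6.69 CPM and Hdac2 ECKO libraries 4.32, 2.61 and 4.58 CPM. The Ezh2 ECKO-labelled libraries ranged from 0.472 to 10.8 CPM and beta-catenin GOF from 0.409 to 4.36 CPM. Over the 12 libraries this was 12 to 334 counts. The log2 fold changes were 0.22, 0.89 and −0.57 against WT with SEs of 0.90 to 0.91, and in Hdac2 ECKO the 95% interval ran from −1.70 to 2.15 (edgeR adjusted p 0.88, 0.57 and 0.96).

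**Figure D3:**
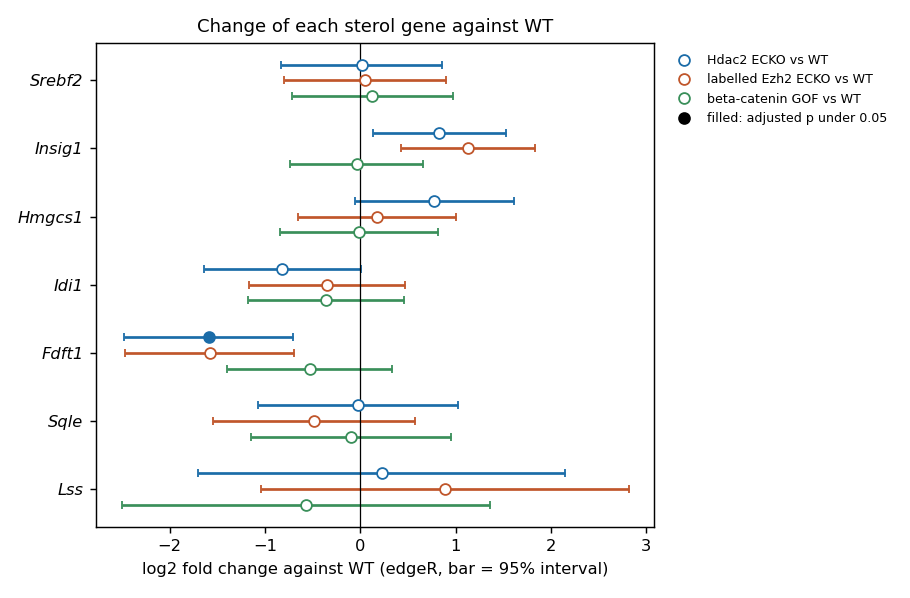
Log2 fold change of each sterol gene against WT (horizontal axis, bars are 95% intervals of the edgeR fit) for the 3 mutant groups, with filled points where the adjusted p was under 0.05. The one filled point is Fdft1 in Hdac2 ECKO at −1.59, and the widest intervals are those of Lss.

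Within a group, 1 library often stood highest or lowest for most of the 7. Hdac2 ECKO replicate 3 held the highest level of its group for all 7 genes. Replicate 1 of the Ezh2 ECKO-labelled libraries was highest for 6 (not Sqle), and replicate 2 was lowest for 5. Beta-catenin GOF replicate 1 was lowest for 6 (not Idi1), and replicate 3 was highest for 5. With each gene scaled to an SD of 1 over the 12 libraries and centred on 0, the mean over the 7 genes was lowest in beta-catenin GOF replicate 1 (−1.08) and highest in Hdac2 ECKO replicate 3 (0.80). The WT libraries lay closer together, at 0.23, 0.083 and 0.10. Without Hdac2 ECKO replicate 3, the log2 fold change of Insig1 in Hdac2 ECKO was 0.47 and that of Hmgcs1 was 0.49.

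Across the 12 libraries the 7 genes did not form 1 pattern. Pearson's r of log2 CPM over their 21 pairs ran from −0.54 to 0.81 with a median of 0.16. Lss and Hmgcs1 were the pair most alike (0.81), and Idi1 and Fdft1 followed (0.68). Fdft1 and Insig1 were the least alike (−0.54). The genes whose levels followed the mean of the 7 most closely were Gm10184 (r = 0.88), Zfp691 (0.86), Trub2 (0.85), Omg (0.84) and Def8 (0.83), none of them in a sterol list used here. These values describe 12 libraries that share groups and depth, and the closest were picked from 12570 other genes.

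The other 17 enzymes from acetyl-CoA to cholesterol extend the picture. In Hdac2 ECKO, 2 of the 17 fell and 0 rose, and 12 of the 17 had a negative log2 fold change, with a median of −0.65 against 0.10 for all genes. Log2 fold changes followed gene length, as described below. The medians of this list and of those that follow were not computed with that trend removed, and the part of length in them was not tested. Over all genes, 5.38% fell and 3.82% rose. For 7 of the 17 all Hdac2 ECKO libraries lay below all WT libraries, against 18.2% of all genes, and for 1 they lay above (19.5%). Fdps, the farnesyl diphosphate synthase gene just before Fdft1 in the pathway, stood at 82.2, 100.1 and 113 CPM in WT, and in Hdac2 ECKO at 21.9, 51.4 and 44.9 CPM. It fell by 1.32 on the log2 scale (SE 0.38, edgeR adjusted p 0.045). Fdps shares 1124 exon bases with Gm43738 on the same strand, and reads in the shared exons cannot be told apart. Its counts were 91.7% to 105% of those of Gm43738 in each library, with a Pearson's r of 0.998 between their log2 CPM. Gm43738 also fell in Hdac2 ECKO (log2 fold change −1.40). Nsdhl, which helps remove the methyl groups at carbon 4 of the sterol ring, was at 30.7, 23.4 and 20.5 CPM in WT, and in Hdac2 ECKO at 11.4, 12.5 and 12.6 CPM. It fell by 1.03 (SE 0.26, edgeR adjusted p 0.036). By edgeR, no enzyme of the 17 changed in the Ezh2 ECKO-labelled libraries, where 1.03% of all genes did. The median there was −0.37, against 0.05 for all genes. In beta-catenin GOF 0 of the 17 changed, as did 0% of all genes, and the median was 0.02 against 0.01. With a trend on gene length removed 0 of the 17 passed in Hdac2 ECKO, with Fdps at −1.35 (edgeR adjusted p 0.056) and Nsdhl at −0.70 (0.076). With scaling by library size alone 0 passed, with Fdps at −1.04 (0.0596) and Nsdhl at −0.79 (0.075).

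**Figure D4:**
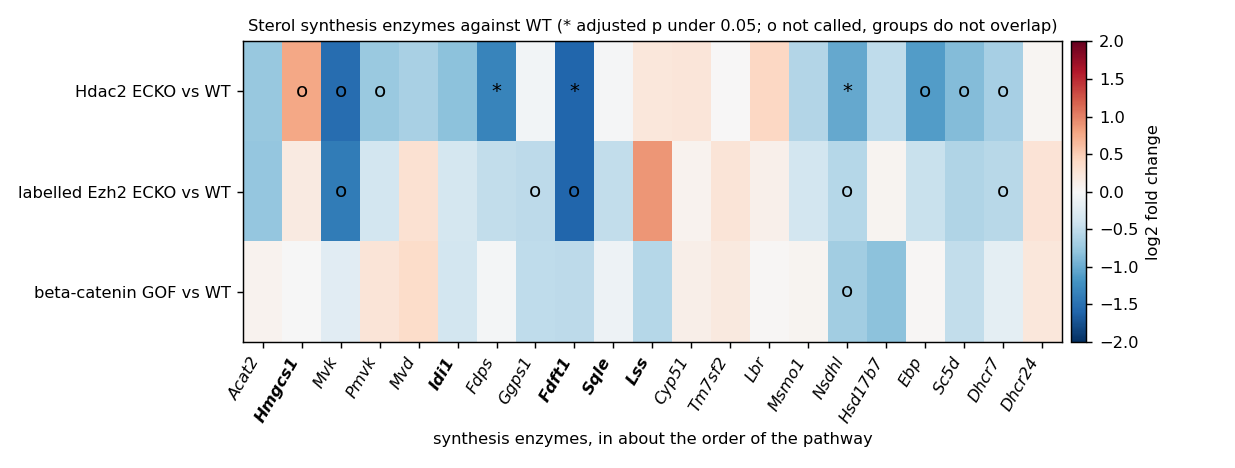
Log2 fold change against WT (colour) of the 5 enzymes among the 7 genes (bold) and other synthesis enzymes, in about the order of the pathway from left to right, for the 3 mutant groups (rows). Stars mark an adjusted p under 0.05 (Fdps, Fdft1 and Nsdhl in Hdac2 ECKO), and circles mark other enzymes whose libraries did not overlap those of WT.

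Among 11 genes of SREBP control, 1 rose and 0 fell in Hdac2 ECKO, where 3.82% of all genes rose. Their median there was 0.64 against 0.10 for all genes, with no length trend removed. Of the 11, 0 changed in the Ezh2 ECKO-labelled libraries (1.03% of all genes) and 0 in beta-catenin GOF (0%). The gene that rose was Srebf1, the relative of Srebf2 that drives mostly fatty acid genes. Its WT libraries held 5.97, 6.59 and 6.80 CPM, and those of Hdac2 ECKO 22.8, 11.2 and 19.4 CPM. The Ezh2 ECKO-labelled libraries held 19.2, 10.7 and 15.6 CPM, and those of beta-catenin GOF 15.2, 11.1 and 9.35 CPM. All 9 mutant libraries lay above all WT libraries. Taken by comparison, this was so for 19.5% of all genes in Hdac2 ECKO, 11.1% in the Ezh2 ECKO-labelled libraries and 6.83% in beta-catenin GOF. The log2 fold change was 1.46 in Hdac2 ECKO (SE 0.34, edgeR adjusted p 0.034). It was 1.23 in the Ezh2 ECKO-labelled libraries (SE 0.34, edgeR adjusted p 0.071) and 0.88 in beta-catenin GOF (SE 0.33, edgeR adjusted p 0.75), neither past the threshold. Srebf1 shares 109 exon bases, 1.93% of its exons, with Rai1 on the opposite strand, and Rai1 also rose in Hdac2 ECKO (log2 fold change 1.18, edgeR adjusted p 0.040). Against this, Srebf2 was at 0.01, 0.05 and 0.13 in the same comparisons. The difference between the 2 genes was not tested. Scap, the escort of SREBP, stood at 1.13 in Hdac2 ECKO (edgeR adjusted p 0.061) and Insig2, the other retention protein gene, at −0.55 (0.12), neither past the threshold.

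Uptake, export and fatty acid synthesis were described from 3 further lists, to be read against the 3.82% of all genes that rose and the 5.38% that fell in Hdac2 ECKO. Their median log2 fold changes there were 0.51, 0.42 and 0.35, against 0.10 for all genes, with no length trend removed. Of 15 uptake and transport genes tested, 0 rose and 1 fell in Hdac2 ECKO: Npc2, a lysosomal cholesterol carrier, whose log2 fold change was −1.25 (SE 0.35, edgeR adjusted p 0.042). Of the 15, 12 had a positive log2 fold change and 3 a negative one. For 6 all Hdac2 ECKO libraries lay above all WT libraries (19.5% of all genes), and for 1 below (18.2%). Of 9 efflux, storage and oxysterol genes tested, 1 rose and 0 fell in Hdac2 ECKO: Abca1, the cholesterol exporter switched on by LXR. Abca1 stood at 22.2, 25.5 and 30.6 CPM in WT. Hdac2 ECKO libraries held 132, 49.9 and 74.4 CPM, the Ezh2 ECKO-labelled libraries 53.8, 53.6 and 60.6 CPM, and beta-catenin GOF 44.0, 37.8 and 34.2 CPM. All 9 mutant libraries lay above WT, as was so by comparison for 19.5%, 11.1% and 6.83% of all genes in the same order of groups. Its log2 fold change was 1.71 in Hdac2 ECKO (SE 0.31, edgeR adjusted p 0.032), 1.10 in the Ezh2 ECKO-labelled libraries (edgeR adjusted p 0.072) and 0.57 in beta-catenin GOF (edgeR adjusted p 0.88). Of 11 fatty acid synthesis genes tested, 1 rose and 0 fell in Hdac2 ECKO: Scd2, a stearoyl-CoA desaturase gene, at 0.93 (SE 0.27, edgeR adjusted p 0.046). No gene of these 3 lists changed in the Ezh2 ECKO-labelled libraries, where 1.03% of all genes did, or in beta-catenin GOF, where 0% did.

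**Figure D5:**
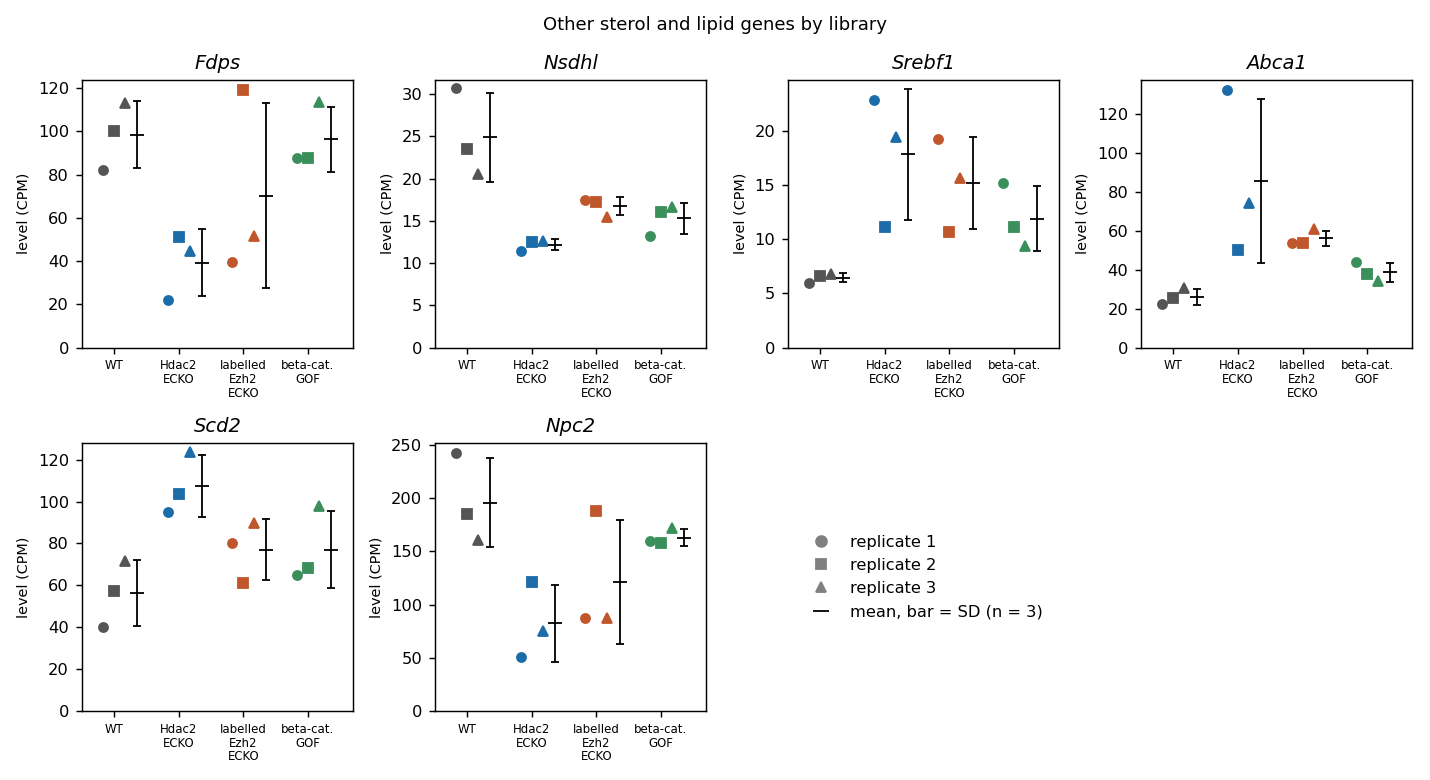
Level in CPM (vertical axes, from 0) of 6 named genes outside the 7, in every library by group, with the marker shape giving the replicate number and the bar the mean and SD of 3 libraries. All mutant libraries lie above WT for Srebf1 and Abca1 and below WT for Nsdhl. Of all genes, 19.5% lie above WT and 18.2% below in Hdac2 ECKO. The shares are 11.1% and 10.9% in the Ezh2 ECKO-labelled libraries, and 6.83% and 5.87% in beta-catenin GOF.

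The 6 calls outside the 7 genes kept their direction without any 1 library, but not their side of the threshold. Leaving out WT replicate 1, WT replicate 2, Hdac2 ECKO replicate 1 or Hdac2 ECKO replicate 3 left 0, 0, 3 and 0 calls among all genes, and none of the 6 passed in these fits, so a call lost there says nothing of a single gene. Over the 6 fits without 1 library each, the log2 fold change of Fdps ran from −1.61 to −1.04 (edgeR adjusted p 0.0246 to 0.181), that of Nsdhl from −1.15 to −0.85 (0.0239 to 0.16) and that of Npc2 from −1.69 to −0.9997 (0.0136 to 0.178). Srebf1 ran from 1.22 to 1.66 (0.0125 to 0.16), Abca1 from 1.23 to 1.94 (0.0104 to 0.155) and Scd2 from 0.73 to 1.14 (0.0283 to 0.174).

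Log2 fold changes followed gene length. Spearman's rho between merged exon length and log2 fold change across genes, which are not independent replicates, was 0.44 in Hdac2 ECKO, 0.29 in the Ezh2 ECKO-labelled libraries and 0.14 in beta-catenin GOF. For Hdac2 ECKO the median was −0.52 in the shortest of 5 equal groups of genes by length and 0.66 in the longest. Fdft1, at 4116 bases, lay at the 45.6th percentile of length and Insig1, at 3093 bases, at the 30.5th. With the trend removed Fdft1 stood at −1.57 in Hdac2 ECKO (edgeR adjusted p 0.038), and Insig1 stood at 1.09 (0.064) there and at 1.45 (0.0515) in the Ezh2 ECKO-labelled libraries. Longer genes moved down in Hdac2 ECKO. Srebf2, at 7184 bases, went from 0.01 to −0.40, and Lss, at 10787 bases, from 0.22 to −0.39. Neither passed the threshold (edgeR adjusted p 0.59 and 0.82 with the trend removed). In these bulk samples, fewer cells of a type and less RNA per cell cannot be told apart.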

How the data were processed

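Sequencing libraries came from the SMART-Seq v4 PLUS kit, a whole-transcript method for small inputs, and were read paired-end by NovaSeq X Plus, per the labels' protocols. The submitters' processing notes name FastQC, cutadapt, STAR, featureCounts, DESeq2 and mm10, with no versions. The authors deposited 1 value per gene and library under a title that calls them normalized, but the values are raw counts: whole numbers with unequal totals, of which 79.5% to 84.0% were even between 10 and 50, as counting each mate would give. Each gene's deposited length was of another kind of value, for 98.6% of genes the merged length of all annotated exons in bases. Symbols, starts and ends matched GENCODE M21 (GRCm38) for 98.4% of genes, which gave the Ensembl identifiers, and starts were moved to count from 1.

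The design allowed for either kind of value, and the main test was edgeR 4.0.16 (R 4.3.3): TMM scaling, 1 term per group over 12 libraries, a minimum mean count of 10 per gene, and Benjamini-Hochberg adjustment within each of 6 contrasts. The SE and 95% interval come from the fit's F statistic. Counting error is the only error that the floor of 3 counts covers, as reads carry no molecular identifiers. The alternatives also used limma 3.58.1 and DESeq2 1.42.0. Counts were simulated for Hdac2 ECKO against WT over 12577 genes, with 200 genes changed and no trend on gene length. Of genes changed by 1 on the log2 scale 12.1% were recovered, and 64.6% of those changed by 2. The data had more calls and a length trend, so these rates need not hold for them. Replicates differed by more than sampling noise (chi-square per degree of freedom at least 65.2).

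Beside the 7 genes, the text names list genes past the threshold in a contrast against WT (up to 6 per list) and the 5 genes most like the mean of the 7. The 7 genes and the lists were chosen with earlier results of these data known. Some list genes are not reported here singly but stay in the counts. Scap, Insig2 and the genes that share exons with those named were added after their values were seen.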

Additional observations from a re-analysis of the deposited data

How the results depend on the processing

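Of 1122 alternative values for the log2 fold changes of 15 genes, 961 kept their direction and their side of the threshold, 39 lost a call, 42 gained one and 80 turned sign, and the cause was not tested. The 7 genes gave 3 calls in Hdac2 ECKO against WT with sample quality weights and 0 to 1 without single libraries. For the Ezh2 ECKO-labelled libraries they gave 2 calls without the filter, with DESeq2 or with quality weights, and 0 to 2 without single libraries. Beta-catenin GOF against Hdac2 ECKO gave 1 without the filter and 2 with quality weights, and against the Ezh2 ECKO-labelled libraries 1 with quality weights. The other enzymes gave in Hdac2 ECKO 0 (library size alone, length trend removed), 5 (no filter, DESeq2), 8 (quality weights) and 0 to 3 without single libraries, and in the Ezh2 ECKO-labelled libraries 1 (DESeq2), 5 (quality weights) and 0 to 4. All genes called in Hdac2 ECKO were 1826 with library size alone, 2279 without the filter, 2553 in DESeq2, 5374 with quality weights, 661 with the length trend removed and 0 to 2216 without single libraries. In the Ezh2 ECKO-labelled libraries they were 129, with 76 by median-ratio factors, 30 by library size, 1367 without the filter, 219 at a mean count of 50, 1280 in DESeq2, 3743 with quality weights, 243 in limma-trend, 17 with the 2 groups alone and 2 to 2329 without single libraries. In beta-catenin GOF they were 157 without the filter, 38 in DESeq2, 26 with quality weights, 1 in limma-trend and 0 to 4 without single libraries.

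A replicate block was fitted although same-numbered libraries share only a number: correlations of their deviations ran from −0.12 to 0.25. With the replicate block the 7 genes gave 1 call in the Ezh2 ECKO-labelled libraries (Fdft1, adjusted p 0.0497), and 1 with the length trend removed as well (Insig1, 0.0371). The block gave 4 of the other enzymes in Hdac2 ECKO, and all genes called were 1832 in Hdac2 ECKO and 536 in the Ezh2 ECKO-labelled libraries, or 615 there with the length trend removed.

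Srebf2 in Hdac2 ECKO against WT was −0.040 with median-ratio factors, −0.040 in DESeq2, −0.0066 with quality weights, −0.038 in limma-trend, −0.020 with the 2 groups alone, −0.40 with the length trend removed and −0.39 with the replicate block as well, and −0.20 to 0.26 without single libraries. In the Ezh2 ECKO-labelled libraries it was −0.24 with quality weights, −0.053 in limma-trend, −0.093 with the length trend removed, −0.10 with the replicate block as well, and −0.32 to 0.36 without single libraries. It was −0.11 to 0.32 in beta-catenin GOF. Sqle in Hdac2 ECKO was 0.22 by library size, 0.27 with quality weights and −0.35 to 0.14 without single libraries, and −0.52 to 0.28 in beta-catenin GOF. Lss in Hdac2 ECKO was −0.39 with the length trend removed, −0.16 with the replicate block as well and −0.15 to 1.28 without single libraries, and −1.53 to 0.48 in beta-catenin GOF. Hmgcs1 was −0.21 to 0.49 in the Ezh2 ECKO-labelled libraries, and in beta-catenin GOF 0.055 by library size and −0.52 to 0.21. Insig1 in beta-catenin GOF was 0.025 by library size, 0.10 with quality weights, 0.021 with the length trend removed, 0.046 with the replicate block as well, and −0.15 to 0.055. Idi1 was −0.62 to 0.11 in the Ezh2 ECKO-labelled libraries and −0.88 to 0.10 in beta-catenin GOF. Fdps in beta-catenin GOF was 0.033 by library size, 0.013 with the replicate block and length trend removed, and −0.17 to 0.078.

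Between Hdac2 ECKO and the Ezh2 ECKO-labelled libraries, Srebf2 was 0.22 by library size, 0.24 with quality weights, 0.015 in limma-trend and −0.37 to 0.31 without single libraries, Lss 0.16 in limma-trend and −1.21 to 0.042, and Fdft1 0.21 by library size and −0.23 to 0.32. For beta-catenin GOF against Hdac2 ECKO, Srebf2 was −0.074 by library size and −0.14 to 0.31, Sqle 0.12 with the length trend removed, 0.025 with the replicate block as well and −0.50 to 0.31, and Idi1 −0.066 to 0.79. Against the Ezh2 ECKO-labelled libraries, Idi1 was 0.016 by library size and −0.53 to 0.20, Srebf2 −0.24 to 0.44, Hmgcs1 −0.69 to 0.19 and Sqle −0.036 to 1.06. Lss had 12 counts in each of its 2 lowest libraries.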
